A study of Mus musculus with 12 samples.

Results

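Solute carriers are the membrane proteins that move amino acids, sugars, lactate, ions, metals, vitamins and nucleotide sugars across the plasma membrane and the membranes of organelles. They were taken here as the genes whose symbol begins with Slc and a number, without the mitochondrial Slc25 carriers, and with a mean level of at least 2 log2 CPM in each of 3 expression tables. CPM is a read count scaled to the size of the library, and 2 on the log2 scale is 4 CPM. The tables are named after the depleted protein, CTR9, CDC73 or MYC. This gave 113 genes of the 10049 that reached that level in every table and of 12484 genes with a value in any table. In all, 155 symbols matched the name pattern. Of the 42 left out, 20 had a value in every table but were under the minimum, and the other 22 had no value analysed here in at least 1 table. The members were thus chosen by measured levels as well as by name, so that their being expressed is not a result. The 3 members closest above the minimum were Slc43a2 at 2.06, 2.46 and 2.88 log2 CPM in the CTR9, CDC73 and MYC tables, Slc45a3 at 2.95, 2.17 and 5.23, and Slc26a6 at 2.32, 2.67 and 2.59. The 3 closest below it were Slc38a3 at 1.96, 1.95 and 2.72, Slc38a9 at 2.32, 1.92 and 2.99, and Slc38a6 at 1.87, 1.65 and 1.87. The pattern also matched 4 symbols that name no carrier, and a description without these 4 is given with the alternatives. They are Slc9a3r1 and Slc9a3r2, the scaffold proteins NHERF1 and NHERF2 that anchor transporters beneath the membrane, Slc4a1ap, which encodes an adaptor protein, and Slc7a6os, named for lying opposite to Slc7a6.

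The cells were KPC cells, a mouse pancreatic ductal adenocarcinoma line carrying doxycycline-inducible shRNAs. RNA came from 12 libraries in 4 groups, 3 each of shCTR9, shCDC73, shMYC and, as the control, shLuciferase, and every group had received 1 µg/ml doxycycline for 48 h. CTR9 and CDC73 are subunits of PAF1c, a complex that travels with elongating RNA polymerase II, and MYC is a transcription factor that drives growth and proliferation. The comparison asks how transcripts of the transport machinery stand when either PAF1c subunit or MYC is depleted. Each group is 1 shRNA in 1 cell line, and nothing in the labels says that replicates came from separate clones.

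Each of the 3 tables gives 1 level per gene, the authors' mean over the libraries compared, those of a depletion and of the shLuciferase control. These tables are called the CTR9, CDC73 and MYC tables below. The mean mixes depleted with control cells. Whether the same 3 shLuciferase libraries enter every table was not tested. If they do, with the same scaling, a difference between 2 tables is a damped image of the difference between 2 depletions. If not, it may also hold a difference between controls or in scaling. No value per library was analysed here. The means therefore have no SD and no n, the tables give no depth behind them, no difference could be set against the spread between replicates, and none was tested. Differences are described by their size, with 0.5 log2 (1.41-fold) as the size counted, beside the same count over all 10049 genes. The sources used here do not say whether the tables were scaled together. The median of all genes differed by 0.05 log2 between the CTR9 and CDC73 tables, by -0.15 between the CTR9 and MYC tables and by -0.19 between the CDC73 and MYC tables, so counts are also given with each table centred on that median.

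The tables carried the marks of their labels. Ctr9 was lowest in the CTR9 table, at 16.5 CPM, against 41.7 in the CDC73 and 25 CPM in the MYC table. Cdc73 was lowest in the CDC73 table (41.2, 21.9 and 37.3 CPM in the CTR9, CDC73 and MYC tables), and Myc in the MYC table (155, 178 and 118 CPM). Of the ductal epithelial markers, Krt8, Krt18 and Krt19 lay between 10.51 and 11.94 log2 CPM and Cdh1 between 7.76 and 8.24, Krt7 was at 7.93 in the CTR9 and 6.77 in the MYC table with no value analysed here for the CDC73 table, while Sox9 was at 3.67, 4.21 and 1.83 and Epcam had no value analysed here. Of the other cell types, Cela1 of acinar cells reached at most 2.79 and Cd68 of leukocytes at most 2.08, and no fibroblast or endothelial marker had a value analysed here. As in any bulk sample, fewer cells of a type and less RNA per cell cannot be told apart.

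Carriers fall into families by sequence, and the families follow their cargo closely enough to be read by role. At the plasma membrane, Slc7a5 with its partner Slc3a2 exchanges large neutral amino acids, Slc1a5 brings in glutamine, Slc2a1 brings in glucose and Slc16a1 moves lactate, all of them well known in tumour cells with high nutrient demand. In the Golgi and endoplasmic reticulum, Slc35 carriers deliver nucleotide sugars and the sulfate donor PAPS for the building of glycans, and Slc39 and Slc30 carriers set the zinc content of cytosol and organelles. Several of the amino acid carriers are textbook targets of MYC or of the stress factor ATF4.

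Sequence upstream of the gene starts is shown for the 2 members that were farthest below the MYC table in the CTR9 table, and for Slc7a11, a carrier of known stress control whose window holds 2 copies of a stress element. The windows are the 250 bases before a start listed by RefSeq on GRCm38.p6 (mm10), read 5′ to 3′ on the strand of the gene. Capitals mark CACGTG, the E-box bound by MYC with MAX among other factors, and TGATGNAA on either strand, a form of the element bound by ATF4. Slc35a5 is read from the minus strand at chr16:45158674-45158923, Slc45a3 from the plus strand at chr1:131962665-131962914 and Slc7a11 from the minus strand at chr3:50443614-50443863.
Slc35a5: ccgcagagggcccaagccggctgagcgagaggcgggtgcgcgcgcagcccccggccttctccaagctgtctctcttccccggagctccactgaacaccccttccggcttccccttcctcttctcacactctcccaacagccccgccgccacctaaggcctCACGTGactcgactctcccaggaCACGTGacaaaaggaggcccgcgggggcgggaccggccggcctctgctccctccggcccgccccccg
Slc45a3: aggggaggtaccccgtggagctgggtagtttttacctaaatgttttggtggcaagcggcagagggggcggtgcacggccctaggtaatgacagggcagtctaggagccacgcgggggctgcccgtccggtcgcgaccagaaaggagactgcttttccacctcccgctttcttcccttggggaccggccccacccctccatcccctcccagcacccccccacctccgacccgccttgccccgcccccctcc
Slc7a11: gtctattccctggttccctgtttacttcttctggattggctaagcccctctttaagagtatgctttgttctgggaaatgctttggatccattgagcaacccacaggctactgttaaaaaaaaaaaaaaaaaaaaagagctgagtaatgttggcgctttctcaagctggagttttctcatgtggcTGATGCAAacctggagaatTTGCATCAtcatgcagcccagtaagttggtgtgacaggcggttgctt
The Slc35a5 window held 2 E-boxes, the Slc45a3 window held neither motif, as did that of its other listed start, and the Slc7a11 window held 2 ATF4-type matches that face each other. Promoter windows were matched for 86 of the 113 members. Among these, 13 held CACGTG (15.1%), against 819 of 7770 genes at the level minimum (10.5%) and 1854 of all 27025 genes with a window (6.86%). TGATGNAA on either strand was in 4 of 86 members (4.65%), against 179 of 7770 genes at the minimum (2.3%) and 1056 of 27025 (3.91%). The 2 motifs can overlap by the letters TG and were counted separately. A match is a string of letters, not a site, and its absence says only that these letters are not in the window.

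The most abundant transcripts were those of a scaffold, of zinc carriers, of the CD98 heavy chain and of a lactate carrier. Levels of different genes are compared here only as CPM per kilobase of exon, averaged over the 3 tables. First by this scale was Slc9a3r1 at 202 CPM per kilobase. Slc39a7, which releases zinc from the endoplasmic reticulum, followed at 144, and Slc39a1, a zinc importer, at 130. Slc3a2, the CD98 heavy chain that carries Slc7a5 to the membrane, reached 103 and Slc16a1 reached 85.9. The remaining 5 of the first 10 were the zinc importer Slc39a4 at 64.5, Slc35a4 at 59.0, the sugar carrier Slc50a1 at 57.3, Slc7a5 at 56.8 and the heme carrier Slc48a1 at 53.5 CPM per kilobase. Neighbours in this order, such as Slc50a1 and Slc7a5, lie close together and cannot be ranked against an error. The order moved between tables: Slc7a5 stood at 68.8, 65.7 and 36.0 CPM per kilobase in the CTR9, CDC73 and MYC tables, and Slc39a4 at 51.9, 80.8 and 60.7. Slc35a4 and Slc48a1 overlap the protein-coding genes Apbb3 and Hdac7, as 18 members overlap some coding gene, and the strand setting of the count is not given in the sources used here, so reads of the neighbour may be included.

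Most carriers, like most genes, stood lower in each PAF1c table than in the MYC table. The members' median differences were -0.24 and -0.28 log2 (-0.09 and -0.08 after centring). Those of all genes were -0.11 and -0.15 (0.04 and 0.04 after centring). Of the 113 members, 24 had their highest level in the CTR9 table, 24 in the CDC73 table and 65 in the MYC table. Over all genes the shares were 21.0%, 26.9% and 52.2%, and after centring the members' counts were 30, 31 and 52. The median member lay at 5.21, 5.07 and 5.47 log2 CPM in the CTR9, CDC73 and MYC tables. The range over the 3 tables was under 0.25 log2 for 16 members, at least 1 for 10 and in between for the rest. Such ranges were not counted over all genes. No cause of the shift was tested.

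**Figure D1:**
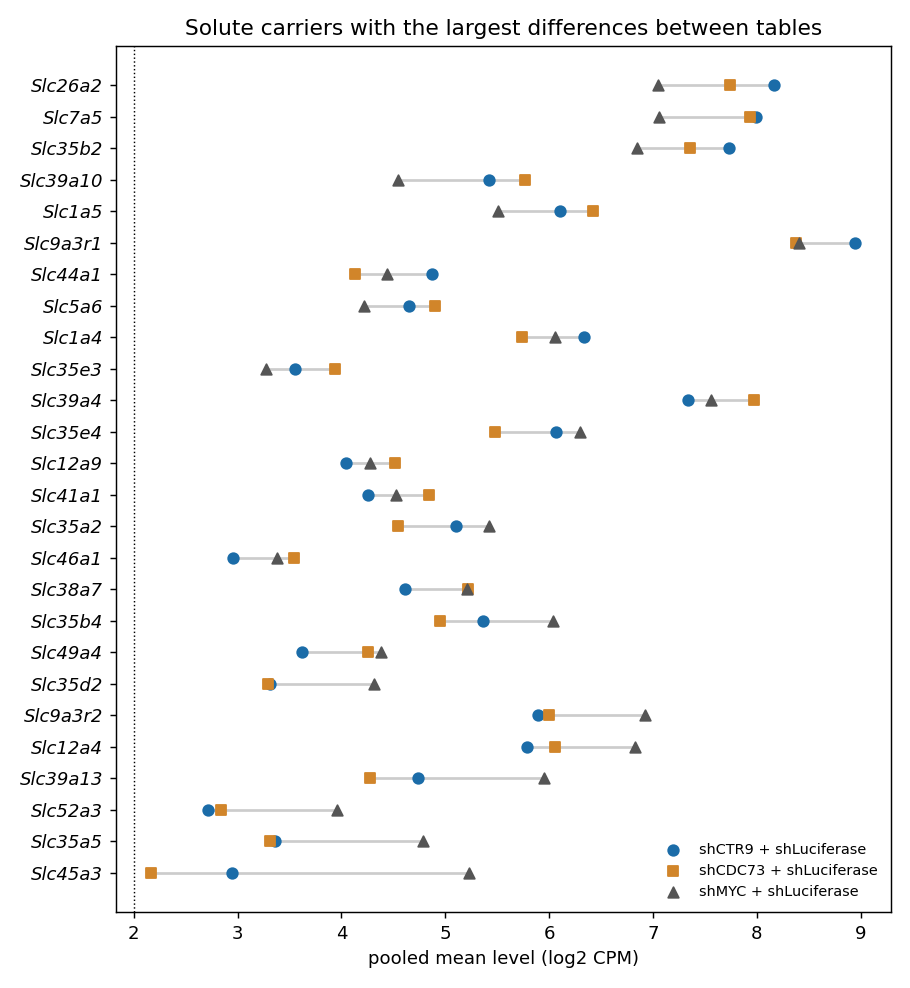
Pooled mean level in log2 CPM (x axis) of the 26 genes with the largest differences between tables, 1 row per gene, with a circle for the CTR9 table, a square for the CDC73 table and a triangle for the MYC table. Each point is the authors' mean over depleted and shLuciferase libraries, without an error. The grey line spans the 3 levels and the dotted line is the level minimum of 2. Slc45a3 at the bottom spans 2.17 to 5.23, and Slc26a2 at the top has its circle at 8.16 and its triangle at 7.05.

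The CTR9 and CDC73 tables lay close to each other. The median difference, CTR9 minus CDC73 table, was 0.06 log2 over the members and 0.02 over all genes, and 66 members were higher and 47 lower in the CTR9 table. By 0.5 log2 or more, 6 members were higher, 5.31% of the members against 5.19% of all genes, and 5 were lower (4.42% against 4.01%). After centring the counts were 6 and 7, against 3.86% and 5.07% of all genes. These shares are near the background, and no difference reached 1 log2. Higher in the CTR9 table were Slc45a3 of the proton-coupled sugar carrier family, the choline carrier Slc44a1 (29.3 CPM in the CTR9 table against 17.5 in the CDC73 table, 0.74 log2), the serine and alanine carrier Slc1a4 (80.9 against 53.3 CPM, 0.60), Slc35e4 (66.8 against 44.6, 0.59), the scaffold Slc9a3r1 (494 against 332, 0.57) and the UDP-galactose carrier Slc35a2 (34.3 against 23.3, 0.56). Slc45a3 had the largest difference of these, 0.78 log2, at low levels of 7.71 CPM in the CTR9 table and 4.49 CPM in the CDC73 table. Lower in the CTR9 table were Slc39a4 (161 CPM against 251 in the CDC73 table, -0.64 log2), Slc49a4 (12.3 against 19.1, -0.63), the lysosomal glutamine carrier Slc38a7 (24.5 against 37.3, -0.61), the folate carrier Slc46a1 (7.77 against 11.7, -0.59) and the magnesium carrier Slc41a1 (19.1 against 28.6, -0.58). The sixth in size, Slc12a9, was at 16.5 CPM in the CTR9 table against 22.9 CPM in the CDC73 table and did not reach 0.5 log2 as deposited (-0.48), though it did after centring (-0.53). Slc46a1 overlaps the coding gene Sarm1.

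The CTR9 and MYC tables differed more. The median difference, CTR9 minus MYC table, was -0.24 log2 over the members and -0.11 over all genes, or -0.09 and 0.04 after centring, and 36 members were higher and 77 lower in the CTR9 table. The members lower by 0.5 log2 or more numbered 29 (25.7%, against 16.8% of all genes) and those higher numbered 6 (5.31%, against 4.45%). After centring, 16 were lower (9.98% of all genes) and 13 higher (9.51% of all genes). The excess of lower members therefore shrinks, and the higher members are more numerous, when the shift of all genes is removed. Higher in the CTR9 table was the sulfate carrier Slc26a2, at 287 CPM against 132 CPM in the MYC table (1.12 log2). With it stood Slc35b2, which carries PAPS made from that sulfate into the Golgi, at 213 CPM in the CTR9 table against 115 CPM in the MYC table (0.89). The others were Slc7a5 (255 against 134 CPM, 0.93), the zinc importer Slc39a10 (42.9 against 23.3, 0.88), the glutamine carrier Slc1a5 (68.7 against 45.4, 0.60) and Slc9a3r1 (494 against 338, 0.54).

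Lower in the CTR9 table was first of all Slc45a3, with 7.71 CPM against 37.5 CPM in the MYC table (-2.28 log2). Slc35a5, a Golgi family member whose cargo is left unnamed here, had 10.3 CPM in the CTR9 table against 27.5 CPM in the MYC table (-1.42). The riboflavin carrier Slc52a3 had 6.56 against 15.5 CPM (-1.25), the secretory-pathway zinc carrier Slc39a13 had 26.7 against 61.7 CPM (-1.21), the potassium chloride cotransporter Slc12a4 had 55.1 against 114 CPM (-1.04), and the scaffold Slc9a3r2 had 59.4 against 121 CPM (-1.03). NHERF1 and NHERF2 thus stood on opposite sides of the MYC table in the CTR9 table. In the CDC73 table Slc9a3r1 lay near the MYC table (-0.03 log2) and Slc9a3r2 below it (-0.92). Of the members lower by 0.5 log2 or more with a matched promoter, 7 of 24 held CACGTG (29.2%), against 116 of 1348 of all genes that were as much lower (8.61%). Of the 6 higher members 3 had a matched promoter and 0 of 3 held it, against 33 of 313 of all such genes (10.5%). The difference between these shares was not tested. Slc7a5, Slc1a5 and Slc26a2 had no matched promoter, so the count says nothing of these higher members.

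The CDC73 and MYC tables differed most. The median difference, CDC73 minus MYC table, was -0.28 log2 over the members and -0.15 over all genes, or -0.08 and 0.04 after centring, and 37 members were higher and 76 lower in the CDC73 table. By 0.5 log2 or more, 34 were lower (30.1%, against 22.1% of all genes) and 9 higher (7.96%, against 7.02%). After centring 17 were lower (11.8% of all genes) and 17 higher (15.5% of all genes). Higher in the CDC73 table were Slc39a10, at 54.4 CPM against 23.3 CPM in the MYC table (1.22 log2), Slc1a5 (85.9 against 45.4, 0.92), Slc7a5 (244 against 134, 0.87), Slc26a2 (213 against 132, 0.69), the biotin and pantothenate carrier Slc5a6 (29.8 against 18.6, 0.68) and Slc35e3 (15.4 against 9.68, 0.67). Slc5a6 overlaps the coding gene Atraid. Lower in the CDC73 table were Slc45a3, at 4.49 CPM against 37.5 CPM in the MYC table (-3.06), Slc39a13 (19.4 against 61.7, -1.67), Slc35a5 (9.91 against 27.5, -1.47), Slc52a3 (7.18 against 15.5, -1.11) and a pair of Slc35 carriers of UDP-linked sugars, Slc35b4 (30.9 against 65.5, -1.09) and Slc35d2 (9.79 against 19.9, -1.03). CACGTG was in 4 of 27 matched members that were lower (14.8%), against 161 of 1769 of all such genes (9.1%), and in 1 of 6 that were higher (16.7%), against 62 of 482 (12.9%). Each table includes shLuciferase libraries, of which the labels give 3 in all, so the 3 levels of a gene may share control values and are not taken as independent.

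Slc7a5, Slc1a5 and Slc3a2 were lowest in the MYC table, and their role as a whole had medians near 0 as deposited that were above 0 after centring. Of the 17 amino acid genes, Slc1a4, Slc1a5, Slc3a2, Slc6a6, Slc6a8, Slc6a9, Slc7a1, Slc7a5, Slc7a6, Slc7a6os, Slc7a7, Slc7a11, Slc36a1, Slc38a2, Slc38a7, Slc38a10 and Slc43a2, the median difference was 0.02 log2 for the CTR9 minus the MYC table and 0.01 for the CDC73 minus the MYC table, or 0.16 and 0.21 after centring. By 0.5 log2 or more, 2 were higher and 3 lower in the first pair, where 4.45% and 16.8% of all genes were, and 3 higher and 1 lower in the second (7.02% and 22.1% of all genes). After centring the counts were 4 higher and 2 lower, where 9.51% and 9.98% of all genes were, and 5 higher and 0 lower (15.5% and 11.8% of all genes). A list of 12 carriers of amino acids, glucose and lactate known for tumour metabolism had 8 members at the level minimum. Slc7a5 was at 255, 244 and 134 CPM in the CTR9, CDC73 and MYC tables, and its partner Slc3a2 at 395, 387 and 309 CPM. Both were lowest in the MYC table, Slc3a2 by less than the size counted. Slc7a11, which imports cystine for glutathione, was highest in the CDC73 table (68.6, 95.3 and 64.5 CPM), 0.56 log2 above the MYC table. The arginine carrier Slc7a1 (133, 115 and 131 CPM) and Slc38a2, a carrier of small neutral amino acids (238, 226 and 202 CPM), kept within 0.25 log2 in every pair. The related Slc38a1 was at 9.76 CPM in the CTR9 table and 15.1 CPM in the CDC73 table, with no value analysed here for the MYC table, and Slc38a5 and Slc43a1 had none in any table. In the opposite direction stood Slc36a1, a lysosomal amino acid carrier picked after its values were seen, at 23.9, 26.7 and 40.8 CPM.

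The glucose carrier Slc2a1 and the lactate carrier Slc16a1 differed in direction. The role of sugars and monocarboxylates was set by family number and so includes the biotin and pantothenate carrier Slc5a6. Its 12 genes were Slc2a1, Slc2a8, Slc5a3, Slc5a6, Slc16a1, Slc16a6, Slc16a13, Slc37a3, Slc37a4, Slc45a3, Slc45a4 and Slc50a1. Of these, 4 were lower by 0.5 log2 or more in the CTR9 than in the MYC table and 0 higher (16.8% and 4.45% of all genes). In the CDC73 table, lower than in the MYC table were 5 and higher 1 (22.1% and 7.02% of all genes). After centring the balance turned, with 1 lower and 2 higher in either pair. Of all genes, 9.98% were then lower and 9.51% higher in the first pair, and 11.8% and 15.5% in the second. Slc5a6 was the 1 higher gene as deposited, and after centring was 1 of the 2 in each pair (0.58 and 0.88 log2). Slc2a1, the main glucose carrier, was at 84.6, 79.4 and 117 CPM in the CTR9, CDC73 and MYC tables, which is 0.47 log2 lower in the CTR9 table and 0.56 lower in the CDC73 table than in the MYC table. Slc16a1 was at 449, 371 and 320 CPM, highest in the CTR9 table and 0.49 log2 above the MYC table. Bsg, the chaperone that brings Slc16a1 to the membrane, was at 947, 974 and 681 CPM, and like Slc16a1 was lowest in the MYC table. The other chaperone of the list, Emb, had no value analysed here. Slc16a3, the second lactate carrier of the list, missed the level minimum at 4.1, 2.63 and 2.62 CPM, its CDC73 and MYC levels lying below 4 CPM. The sodium pump sets the gradient that drives many carriers, and its beta subunits stood on opposite sides: Atp1b1 was at 159, 122 and 89.1 CPM and Atp1b3 at 121, 111 and 149 CPM.

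The nucleotide sugar carriers gave the largest count of lower members of any role against the MYC table. Their share was not the largest as deposited, nor after centring in the CTR9 table. They were Slc35a1, Slc35a2, Slc35a3, Slc35a4, Slc35a5, Slc35b1, Slc35b2, Slc35b3, Slc35b4, Slc35c1, Slc35c2, Slc35d1, Slc35d2, Slc35e1, Slc35e2, Slc35e3, Slc35e4, Slc35f5, Slc35f6 and Slc35g1. The role was set by family number, so it also holds the PAPS carriers Slc35b2 and Slc35b3 and members such as Slc35a5 whose cargo is left unnamed here. Of the 20, 15 were lower in the CTR9 than in the MYC table, as were 6190 of all 10049 genes. Also 15 were lower in the CDC73 than in the MYC table, as were 6378 of all genes. By 0.5 log2 or more, 7 were lower and 1 higher in the first pair, and 10 lower and 2 higher in the second. Of all genes, 16.8% and 22.1% were lower and 4.45% and 7.02% higher. After centring the counts were 5 lower and 2 higher, and 8 lower and 2 higher. Of all genes, 9.98% and 11.8% were then lower and 9.51% and 15.5% higher. The difference of the role from all genes was not tested. Their median differences were -0.28 and -0.55 log2, or -0.13 and -0.36 after centring. Against the CDC73 table, 18 of the 20 were higher in the CTR9 table, where 53.2% of all genes were. The median of the 20 was 0.19 log2 (0.14 after centring), against 0.02 over all genes (-0.03 after centring). Slc35a2 and Slc35e4 reached 0.5, as did 5.19% of all genes. Slc35b2, 1 of 5 in the role that were higher in the CTR9 than in the MYC table, was highest in the CTR9 table (213, 163 and 115 CPM). Slc35d1, Slc35e2 and Slc35g1, picked after their values were seen, were also highest in the CTR9 table. Slc35b3, which carries the same PAPS and was picked after its values were seen, was highest in the MYC table (12, 11.3 and 22.4 CPM). The metals, also 20 genes, had 3 and 4 lower by 0.5 log2 or more in the first and second pair. Of the vitamin, choline, acetyl-CoA and heme genes, 4 of 11 were lower in the first pair and 2 in the second. Of the lipid, organic ion, peptide and amine genes, 1 of 7 was lower in the first and 4 in the second. After centring the 2 counts of 4 in these smaller roles fell to 2 and 1. Of the 3 nucleoside genes, 1 was lower in each pair, and 1 and 0 after centring. Of the 2 genes of other families, 1 and 2 were lower, and 1 and 0 after centring.

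Among the metal carriers, the highest and the lowest against the MYC table belonged to 1 family. The 20 genes were Slc11a2, Slc30a1, Slc30a4, Slc30a5, Slc30a6, Slc30a7, Slc30a9, Slc31a1, Slc39a1, Slc39a3, Slc39a4, Slc39a6, Slc39a7, Slc39a9, Slc39a10, Slc39a11, Slc39a13, Slc39a14, Slc40a1 and Slc41a1, with medians of -0.22 log2 for the CTR9 minus the MYC table and -0.24 for the CDC73 minus the MYC table (-0.07 and -0.04 after centring). Slc39a10 at the plasma membrane was at 42.9, 54.4 and 23.3 CPM in the CTR9, CDC73 and MYC tables, and Slc39a13 in the secretory pathway at 26.7, 19.4 and 61.7 CPM, the reverse order. Slc39a11, another zinc carrier of the family and picked after its values were seen, was at 37.7, 38.3 and 71.3 CPM. Slc39a11 overlaps the coding genes Cog1 and Sstr2.

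The 18 genes of inorganic ions and pH included Slc4a1ap, Slc4a2, Slc4a4, Slc4a7, Slc8b1, Slc9a3r1, Slc9a3r2, Slc9a5, Slc9a8, Slc12a2, Slc12a4, Slc12a7, Slc12a9, Slc26a2 and Slc26a6. Slc4a1ap, Slc9a3r1 and Slc9a3r2 name no carrier, and the role was not counted without them. By 0.5 log2 or more, 2 were higher and 4 lower in the CTR9 than in the MYC table, and 1 higher and 4 lower in the CDC73 than in the MYC table, near the 16.8% and 22.1% of all genes that were lower. The scaffold Slc9a3r1 was among the higher in the first pair, and the scaffold Slc9a3r2 among the lower in both. After centring 2 were higher and 2 lower in either pair, where 9.51% and 9.98%, and 15.5% and 11.8%, of all genes were. The median of the 18 was -0.16 log2 for the CDC73 minus the MYC table and turned to 0.03 after centring. The 11 genes for vitamins, choline, acetyl-CoA and heme, Slc19a1, Slc19a2, Slc23a2, Slc33a1, Slc44a1, Slc44a2, Slc46a1, Slc48a1, Slc49a4, Slc52a2 and Slc52a3, had medians of -0.34 and -0.31 log2 against the MYC table in the CTR9 and CDC73 tables, or -0.19 and -0.11 after centring. Among them Slc33a1, which carries acetyl-CoA into the endoplasmic reticulum and was picked after its values were seen, was at 103, 85.9 and 148 CPM in the CTR9, CDC73 and MYC tables and overlaps the coding gene Gmps. The 7 carriers of lipids, organic ions, peptides and amines, Slc10a3, Slc10a7, Slc15a4, Slc18b1, Slc22a5, Slc22a23 and Slc27a4, held 1 lower member in the CTR9 table and 4 in the CDC73 table by the size counted, where 16.8% and 22.1% of all genes were lower. After centring they held 0 and 1, where 9.98% and 11.8% of all genes were lower, with 1 higher in the CDC73 table (15.5% of all genes). The rest were the phosphate families (Slc17a5, Slc20a1 and Slc20a2), the nucleoside carriers (Slc29a1, Slc29a2 and Slc29a3) and the family members Slc66a1 and Slc66a2. Of the nucleoside carriers, Slc29a1 at the plasma membrane was at 178, 168 and 132 CPM and Slc29a3 of lysosomes at 11.1, 13.0 and 19.6 CPM, an opposite order picked after their values were seen.

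**Figure D2:**
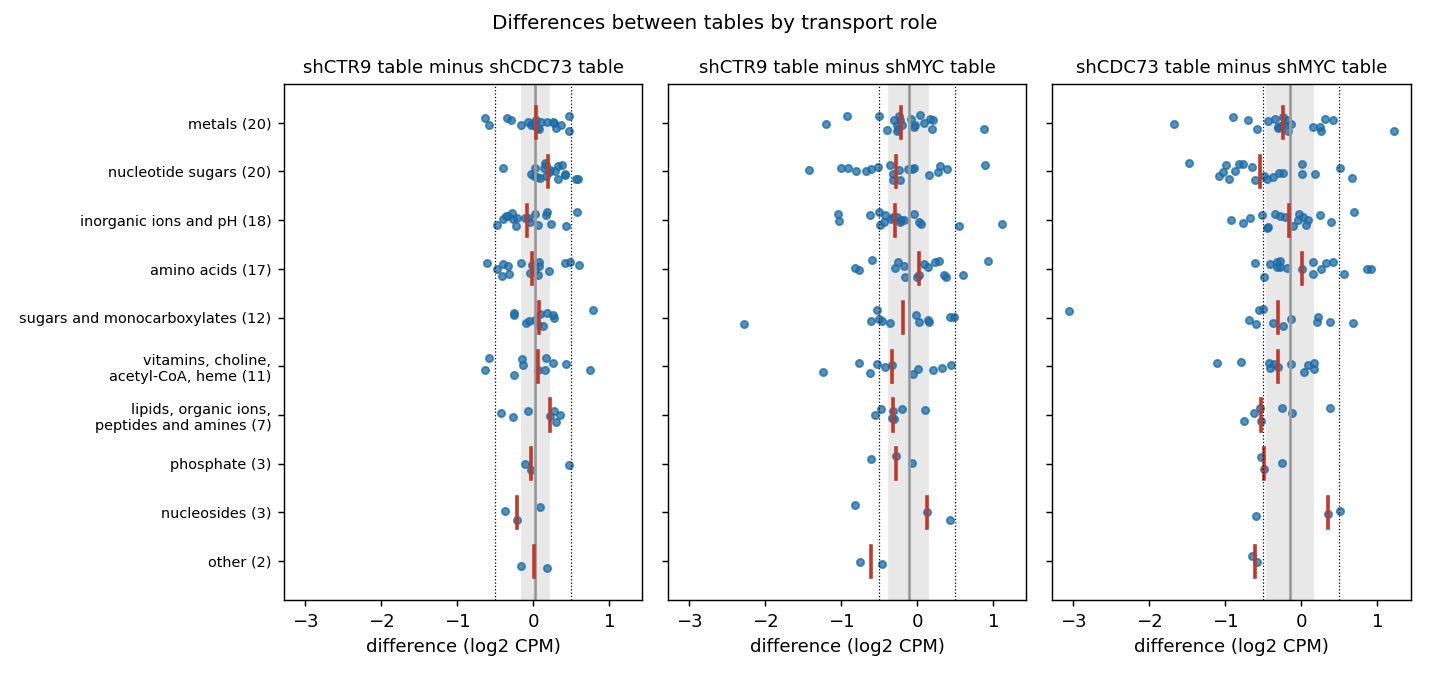
Difference in pooled mean level (x axis, log2 CPM) for each pair of tables, 1 panel a pair, with members in rows by transport role and the number of genes in brackets. Blue points are genes, red bars the median of a role, the grey line and band the median and quartiles of all 10049 genes, and dotted lines mark 0.5 either way. The nucleotide sugar row has its median at 0.19, -0.28 and -0.55, and the lowest point is Slc45a3 at -3.06 in the third panel. Medians are as deposited, and that of inorganic ions and pH in the third panel turns to 0.03 after centring.

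The mitochondrial Slc25 carriers, left out by the rule, gave a comparison within the same superfamily. Their 33 genes at the minimum had median differences of 0.12, -0.09 and -0.22 log2 for the CTR9 minus CDC73, CTR9 minus MYC and CDC73 minus MYC tables, where the members had 0.06, -0.24 and -0.28. By 0.5 log2 or more, 0 were higher and 4 lower in the CTR9 than in the MYC table, and 2 higher and 9 lower in the CDC73 than in the MYC table. The shares lower, 12.1% and 27.3%, stand beside 16.8% and 22.1% of all genes. After centring the counts were 3 higher and 3 lower, where 9.51% and 9.98% of all genes were, and 3 higher and 6 lower (15.5% and 11.8% of all genes). The difference between the 2 sets was not tested.

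Gene span moved with the difference over all genes, and less clearly over the members. Members were split at 16.6 and 34.8 kb of genomic span. The median CTR9 minus MYC difference was -0.14 log2 for the 38 short members, -0.27 for the 37 of middle span and -0.28 for the 38 long ones, where all genes of the same spans had -0.00, -0.09 and -0.23. For the CDC73 minus the MYC table the members had -0.24, -0.23 and -0.33, and all genes -0.03, -0.18 and -0.25. In each span class and in both pairs the members' median lay below that of all genes. The part of span in the differences was not tested.

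For some members the mean alone bounds what the cells held. If the same 3 shLuciferase libraries enter each table with the same scaling, and if the deposited level is an arithmetic mean of CPM, then a gene's level in 2 depletions differs by 2 times the difference of its table means. The CPM of a table summed to 1005680, 1005405 and 999965, near the total that arithmetic means of CPM would give, but the shared scaling was not tested. The study's text speaks of its MYC depletion results as earlier ones, and whether the MYC table holds the same control libraries was not tested either. Under these assumptions Slc7a5 was 243 CPM higher in shCTR9 than in shMYC cells and 220 CPM higher in shCDC73 than in shMYC cells, which is at least 1.91-fold and 1.83-fold. Slc26a2 was 309 CPM higher in shCTR9 than in shMYC cells. Slc1a5 was 46.7 and 81.1 CPM higher in shCTR9 and in shCDC73 cells than in shMYC cells. For Slc7a5 and Slc1a5, whether the difference lies in the PAF1c depletion or in the MYC depletion cannot be told apart from these means.

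The control level can be bounded too, since it is at most 2 times the lowest mean. Slc45a3 then had between 66.1 and 75.1 CPM in shMYC cells, against at most 8.98 CPM in shLuciferase cells, at least 7.36-fold higher. Slc39a13 had 84.6 to 123 CPM in shMYC cells against at most 38.7 CPM in shLuciferase cells (at least 2.18-fold), Slc35a5 had 35.2 to 55.1 against at most 19.8 (1.78-fold) and Slc52a3 had 18 to 31.1 against at most 13.1 (1.37-fold). Slc39a10 had 62.1 to 109 CPM in shCDC73 cells against at most 46.7 CPM in shLuciferase cells (1.33-fold), and Slc26a2 had 309 to 573 CPM in shCTR9 cells against at most 264 CPM in shLuciferase cells (1.17-fold). These 6 lay above the control bound with the tables centred as well, which was not counted over all genes. Slc35b4, Slc12a4, Slc9a3r2 and Slc35d2 in shMYC cells did so as deposited, at least 1.12-fold, 1.06-fold, 1.04-fold and 1.04-fold, and not after centring. In all, 1 of 113 members lay above the control bound in shCTR9 cells, 1 in shCDC73 cells and 8 in shMYC cells, where 0.965%, 1.49% and 5.10% of all genes did. The bounds hold no sampling error, since no library has its own value here.

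**Figure D3:**
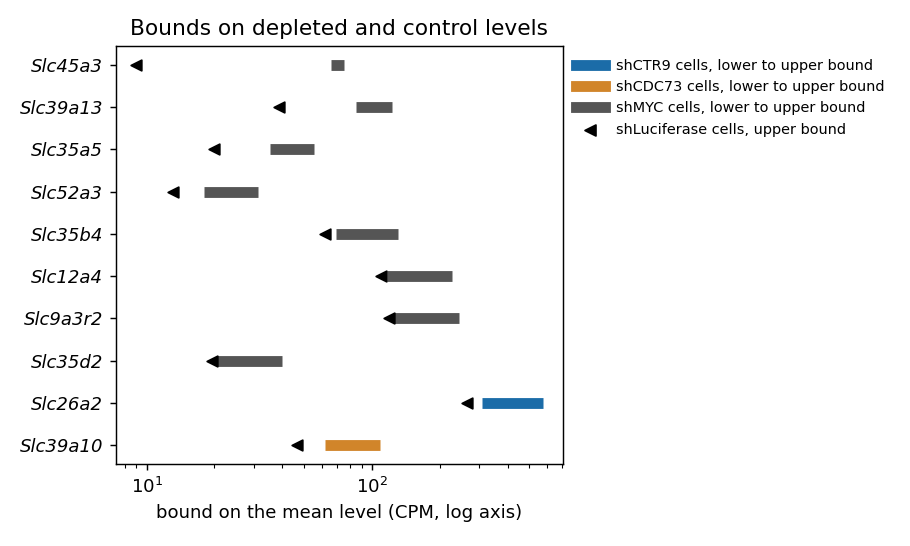
Bounds on the mean level in CPM (x axis, log scale) for the 10 members whose depleted level must exceed the shLuciferase level under the assumptions given, 1 row per gene. Bars run from the lower to the upper bound in shCTR9, shCDC73 or shMYC cells and black arrowheads mark the upper bound in shLuciferase cells. The Slc45a3 bar, 66.1 to 75.1 CPM in shMYC cells, lies farthest above its arrowhead at 8.98 CPM, and Slc35b4, Slc12a4, Slc9a3r2 and Slc35d2 lose the gap after centring.

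On GRCm38 the genes on which these values turn lie at chr1:131962915-131982972 (Slc45a3), chr16:45139573-45158673 (Slc35a5), chr2:91061781-91070441 (Slc39a13), chr2:151996511-152009258 (Slc52a3), chr1:46807544-46925776 (Slc39a10), chr18:61196854-61211596 (Slc26a2), chr8:121881146-121907686 (Slc7a5) and chr7:16781334-16798274 (Slc1a5), each the RefSeq span of the whole gene with exons, introns and UTRs. A level is 1 value per gene, so isoforms were not told apart.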

How the data were processed

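Poly(A) RNA of 12 libraries (3 each of shCTR9, shCDC73, shMYC and shLuciferase) was sequenced after strand-specific library preparation. The authors mapped reads to mm10 with Bowtie2 2.3.4.1, brought all samples to the mapped read number of the smallest, made gene counts with featureCounts, kept those of at least 5 reads and analysed them with edgeR. Neither annotation nor strand setting is given in the sources used here. Bowtie2 does not split reads over introns, so that reads over splice junctions can be lost for genes with many short exons. The deposited tables hold 11982, 12128 and 12100 genes for CTR9, CDC73 and MYC, each with a log2 CPM, the authors' mean over depleted and control libraries. Besides, 4 columns per table hold the authors' own comparison (fold change, likelihood ratio, p-value and adjusted p-value) and were not used.

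From the log2 CPM, CPM, CPM per kilobase of exon (GENCODE vM21), differences between tables, and bounds on depleted and control levels were computed with Python 3.11.15, numpy 2.4.6 and pandas 2.3.3, and plotted with matplotlib 3.10.9. The computation was checked on simulated tables without noise, built with the assumptions of the bounds. That check cannot show whether the assumptions hold for these data. No test was run, and the tables give no depth per library. Gene positions and promoters are from RefSeq on GRCm38.p6. Members, lists and the naming rule were chosen with earlier results of these data known. Named genes are the 10 members with the highest CPM per kilobase, the 6 with the largest difference each way per pair of tables, the members and symbols next to the minimum, a list of 12 nutrient carriers and a list of partners. Others are said to be picked after their values were seen. A few items of these lists are not reported here by name.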

Additional observations from a re-analysis of the deposited data

How the results depend on the processing

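The 3 tables hold means over depleted and control libraries, so neither replicate error nor a test exists for any difference here. Libraries could not be left out. If the tables share their controls and scaling, which was not tested, the control share of a mean damps each difference. No paired analysis was possible because the tables hold no column per library. The tables give no counts, so the counting error of low members such as Slc45a3, Slc52a3 and Slc46a1 was not computed. Alternatives were a minimum of 1 or 3 log2 CPM (123 or 103 members), the 109 members without the symbols that name no carrier, a size of 0.25 or 1 log2, and centring. Bounds with centred tables were added after seeing the data.

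In each pair the majority of members stayed on the same side under every alternative run, but centring turned the CTR9 and CDC73 calls to 6 higher and 7 lower and turned the balance or median of some roles, as given with them. Of the alternative values, 25 stayed within the limit set for calling them alike and 17 moved, 12 of them with the size counted and the rest with centring. With a size of 0.25 log2, 29 members were higher and 23 lower in the CTR9 than in the CDC73 table, 17 higher and 54 lower in the CTR9 than in the MYC table, and 19 higher and 61 lower in the CDC73 than in the MYC table. With a size of 1 log2 the counts were 0 and 0, 1 and 7, and 1 and 6. Neither size was counted over all genes. With centred tables they were 13 higher and 16 lower for the CTR9 and MYC tables, 17 and 17 for the CDC73 and MYC tables, and the share of members higher in the CTR9 than in the MYC table was 41.6%, against 31.9% as deposited. Centring removes the shift of the median of all genes by construction.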
